A study of Mus musculus with 2 samples.

Results

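The PPM family of serine and threonine phosphatases, to which Wip1 (Ppm1d) belongs, was examined in regenerating liver that lacked Wip1. Its members were the probes whose name in both scanner files was Ppm1a, Ppm1b, Ppm1d, Ppm1f, Ppm1g, Ppm1h, Ppm1k, Ppm1l or Ppm1m. These 9 genes had 10 of the 31920 gene probes on the array, 2 for Ppm1k and 1 for each other gene. The named probes stood for 19439 genes in all.

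The study hybridised liver RNA from Wip1 KO and WT mice together on 2-colour oligonucleotide arrays. Livers were taken 24 h and 36 h after partial hepatectomy, in which some lobes are cut away and the remaining tissue regenerates. All mice were 3 months old, and the labels give no strain, sex, number of animals per RNA, or account of which part of Ppm1d was deleted. On the 1 array per time, Cy5 labelled the Wip1 KO RNA and Cy3 the WT RNA, without a dye swap. There were thus 4 measured RNAs, no replicates and no possible test, and every ratio below describes these RNAs only. The number of arrays limits the precision, and a dye effect of a probe cannot be told apart from genotype.

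PPM phosphatases, also called PP2C enzymes, act as single proteins that need magnesium or manganese ions, unlike the phosphatases PP1 and PP2A, which work through separate regulatory subunits. Wip1 takes phosphate off p53 and off kinases of the DNA damage response, and its own transcription is raised by p53. Its relatives act on other signals: Ppm1a and Ppm1b on Smad proteins and stress kinases, Ppm1k on the mitochondrial enzyme that breaks down branched-chain amino acids, Ppm1f on calcium/calmodulin-dependent kinases.

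The promoters of Ppm1d, the deleted gene, and of Ppm1k, whose 2 probes gave ratios of different size at 36 h, the wider from a spot below background, are shown as RefSeq gives them on GRCm38.p6, from 250 bases before to 50 bases after the gene start. Capitals mark GC boxes, the letters GGGCGG on either strand, which may overlap each other. The Ppm1d promoter lies at chr11:85311004-85311303 on the plus strand and the Ppm1k promoter at chr6:57535438-57535737 on the minus strand.
Ppm1d: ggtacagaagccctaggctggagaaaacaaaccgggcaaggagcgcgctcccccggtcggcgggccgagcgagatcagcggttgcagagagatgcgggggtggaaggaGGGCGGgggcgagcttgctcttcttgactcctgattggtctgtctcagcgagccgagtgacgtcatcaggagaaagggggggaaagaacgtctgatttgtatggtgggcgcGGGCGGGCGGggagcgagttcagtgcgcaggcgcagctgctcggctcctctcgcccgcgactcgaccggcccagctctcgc
Ppm1k: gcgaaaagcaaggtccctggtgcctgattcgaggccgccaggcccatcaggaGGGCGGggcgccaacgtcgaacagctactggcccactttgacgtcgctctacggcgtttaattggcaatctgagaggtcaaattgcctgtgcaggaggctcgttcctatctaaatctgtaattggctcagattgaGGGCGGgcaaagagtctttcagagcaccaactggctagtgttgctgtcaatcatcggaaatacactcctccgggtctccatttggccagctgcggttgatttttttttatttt
The Ppm1d promoter held 3 GC boxes and 30 CpG sites, and the Ppm1k promoter 2 GC boxes and 16 CpG sites. A GC box was present in 35.7% of the 32851 promoters in the RefSeq table, whose median was 7 CpG sites. The Ppm1d promoter held 1 match to the p53 half-site consensus, which 8.36% of all promoters held, and the Ppm1k promoter held none. RefSeq gave promoters for 8 of the 9 genes, and none of their 11 promoters other than that of Ppm1d held this half-site. The arrays measured RNA only, and nothing about binding follows from these letters.

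A channel counted as above background when a spot's median foreground was brighter than its local background plus 2 SDs of that background. Over all gene probes, 33.2% passed in the Wip1 KO channel and 41.4% in the WT channel at 24 h, and 31.1% and 36.8% at 36 h. Of 1104 blank or empty spots, between 0.091% and 0.18% passed in each channel. Repeated spots of 4 control genes, 48 each, had SDs between 0.10 and 0.17 log2 units for the genotype ratio. Different probes of one gene differed by more, with a pooled SD of 0.26 log2 units at both times. Hepatocyte markers were measured in every channel for 7 of the 7 listed genes on the array, as the liver label says.

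The deleted gene itself, Ppm1d, did not exceed background in any of the 4 channels on its only probe. Its foreground was 6.0 units in Wip1 KO and 30.0 in WT at 24 h, where 90.2 and 85.9 were needed. At 36 h it was 3.0 units in Wip1 KO and 58.0 in WT, where 79.6 and 129.9 were needed. Of the blank or empty spots, 28.5% were as bright as Ppm1d in WT at 24 h and 11% at 36 h. WT liver therefore gave no measurable Ppm1d signal on this probe, so the loss of the gene could not be read from the arrays and the identity of the channels rests on the labels. The authors' deposited table gives a ratio of 6.21 for this probe at 24 h and 0.786 at 36 h, values that come from spots below background in both channels.

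Ppm1l, a phosphatase of the endoplasmic reticulum membrane, was below background in all 4 channels as well. Its brightest reading was 37.0 units, in WT at 36 h, and 37.1% of the blank or empty spots were at least as bright there. Ppm1f, which dephosphorylates calcium/calmodulin-dependent kinases, was below background in all 4 channels but closer to the limit. Its foreground was 95 units in WT at 24 h, where 101.5 were needed, and 0.091% of blank or empty spots were as bright. No ratio is given for these genes.

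Ppm1h, known for removing phosphate from Rab GTPases, passed at 24 h only. Its foreground at 24 h was 37.0 units in Wip1 KO, where 32.2 were needed, and 112.0 in WT, where 105.0 were needed. The Wip1 KO reading passed beside an unusually even background, since 99.4% of gene spots had a background SD at least as high as its 16.1 units. With the median background SD of the array in place of that value, 107.2 units would have been needed. At 36 h the probe was below background in both channels, at 18.0 units in Wip1 KO and 92.0 in WT.

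**Figure D1:**
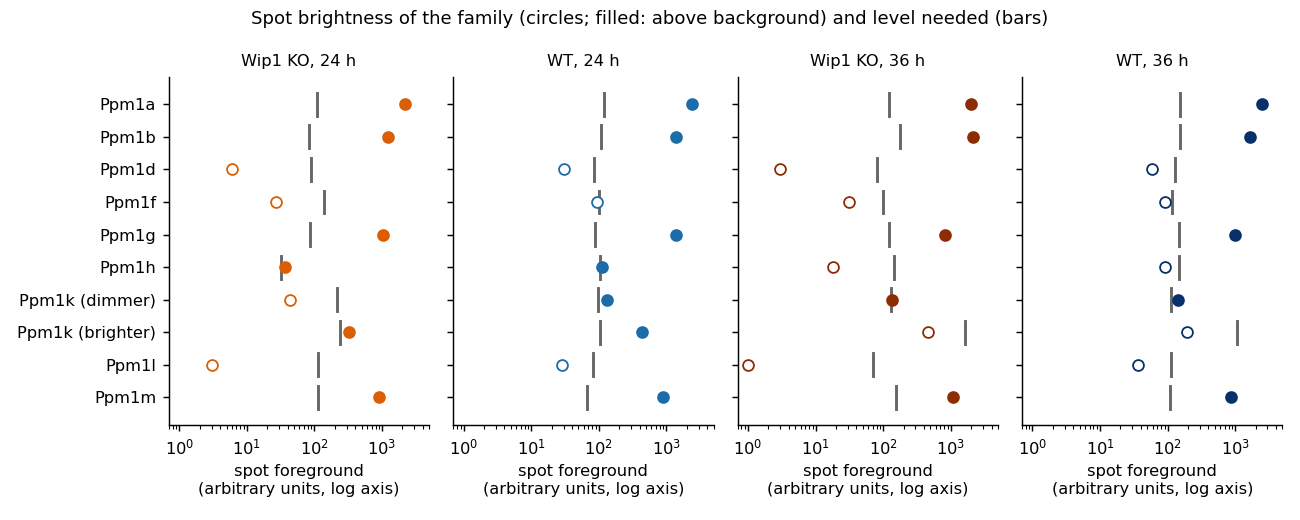
Foreground brightness of each probe of the family (circles, arbitrary units on a log axis) in Wip1 KO and WT liver at 24 h and 36 h, with the level needed to count as above background (vertical bars) and filled circles where it was exceeded. Ppm1a, Ppm1b, Ppm1g and Ppm1m stand well to the right of their bars in all 4 channels, while Ppm1d, Ppm1f and Ppm1l do not reach theirs in any.

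The first question was whether the relatives of Wip1 differ between Wip1 KO and WT liver at 24 h. They differed little: 6 of the 9 genes were measured, 3 with a ratio above 0 and 3 below, and none was 2-fold apart. Their log2 ratios ran from -0.22 to 0.25, with a median of -0.001. Over all 8018 genes measured at 24 h the median was 0.01, the median absolute log2 ratio was 0.22 and 2.29% were at least 2-fold apart in either direction, so the absence of such a call among 6 genes is near the background.

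Ppm1a, a phosphatase of Smad proteins and of stress kinases, gave normalised log2 intensities of 11.22 in Wip1 KO and 11.15 in WT at 24 h, a log2 ratio of 0.07. Ppm1b, which acts on the kinases TAK1 and IKK beta, gave 10.43 and 10.36, also a log2 ratio of 0.07. Both ratios lay below the SD between probes of one gene, and both were below 0 under median centring, at -0.05 and -0.07.

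Ppm1g, a nuclear phosphatase known for its part in spliceosome assembly, gave 10.20 in Wip1 KO and 10.38 in WT at 24 h, a log2 ratio of -0.18. Ppm1m, a close relative of Ppm1h, gave 10.02 and 9.76, a log2 ratio of 0.25 or 1.19-fold higher in Wip1 KO. Of all measured genes, 43.8% had a larger absolute ratio than Ppm1m. Ppm1h, near the limit of detection, had a log2 ratio of -0.22 that became -0.60 in the authors' deposited table. Its 24 h spot carries a negative quality flag, and without spots flagged in this way the median of the 5 members left at 24 h was 0.07.

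Ppm1k, the mitochondrial phosphatase that activates the branched-chain keto acid dehydrogenase complex, has a pair of probes. The brighter, M400013923, gave foregrounds of 324.0 units in Wip1 KO and 431.0 in WT at 24 h and a log2 ratio of -0.07, which became 0.43 when the mean foreground replaced the median. Its Wip1 KO background was uneven, with an SD of 120.5 units that 1.24% of gene spots reached or passed, and 241.0 units were needed. With 3 background SDs in place of 2 it did not pass, and 4 members were left at 24 h. The dimmer, M300011154, was above background in WT only, at 132.0 units. Its Wip1 KO reading of 43.0 units lay beside an uneven background, where 217.8 were needed, so no fold is given for that probe.

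**Figure D2:**
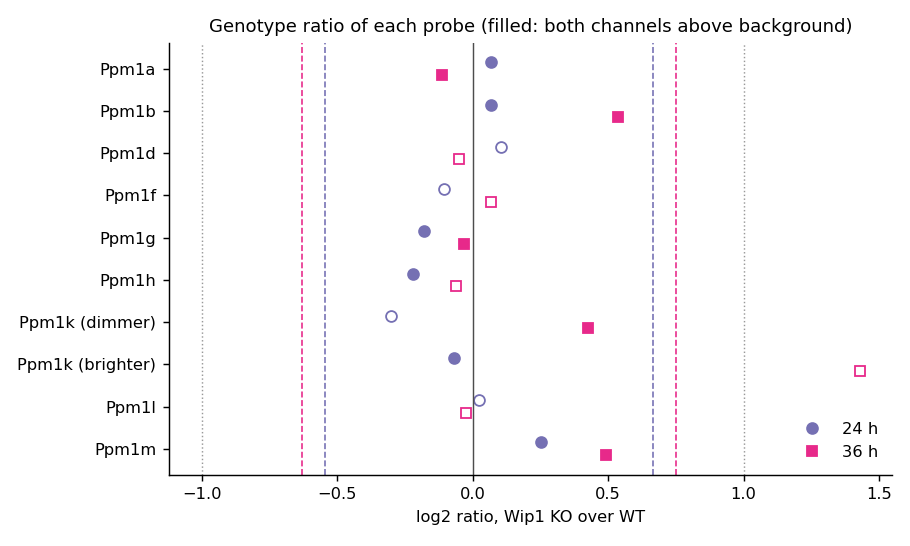
Log2 ratio of Wip1 KO over WT of each probe at 24 h (circles) and 36 h (squares), filled where both channels were above background. Dashed lines give the 5th and 95th percentiles of all measured genes at each time, and dotted lines a 2-fold difference. All filled symbols lie between the dashed lines, and the open square of the brighter Ppm1k probe lies at 1.43.

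At 36 h the same comparison gave 4 genes above background on their brightest probe, and again none was 2-fold apart. Ppm1b and Ppm1m were higher in Wip1 KO than in WT, by 1.45-fold and 1.41-fold, while Ppm1a and Ppm1g were near equal. The median log2 ratio of the 4 genes was 0.23 against 0.03 over all 7460 genes measured at 36 h, of which 4.72% were at least 2-fold apart in either direction. This median depends on which members enter: it was -0.03 over 3 members without negative flags, which leaves out Ppm1m, -0.03 over 9 members without the background filter, and 0.49 over 5 members with the array-wide background SD.

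Ppm1b had foregrounds of 2098.0 units in Wip1 KO and 1643.5 in WT at 36 h and normalised log2 intensities of 11.19 and 10.66. Its log2 ratio of 0.54 was larger than the SD of 0.26 between probes of one gene, and 17.3% of all measured genes had a larger absolute ratio. The ratio ran from 0.54 to 0.63 over the 13 settings used, the authors' deposited ratio included. Settings that change only which spots are kept, or that average over probes, could not alter it, because its only probe passed them all.

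Ppm1m had foregrounds of 1078.0 units in Wip1 KO and 866.0 in WT at 36 h and normalised log2 intensities of 10.28 and 9.79. Its log2 ratio was 0.49, between 0.33 and 0.57 over the settings used, and 20.2% of all measured genes had a larger absolute ratio. The 36 h spot carries a negative quality flag of the scanning software, whose meaning the file headers do not give.

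Ppm1a gave 11.11 in Wip1 KO and 11.23 in WT at 36 h, a log2 ratio of -0.11. Ppm1g gave 9.92 and 9.95, a log2 ratio of -0.03 that turned positive under median centring (0.04), print-tip loess (0.09) and in the authors' deposited table (0.13). Of all measured genes, 73.2% had a larger absolute ratio than Ppm1a and 92.3% a larger one than Ppm1g.

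Ppm1k was higher in Wip1 KO on both probes at 36 h, but the size differed between them. The brighter spot failed the background rule and the dimmer passed it narrowly. The dimmer probe was above background in both channels, at 133.5 units in Wip1 KO, where 128.6 were needed, and 144.5 in WT, where 112.5 were needed. Its background SDs were 63.8 and 43.5 units, and with 3 of them in place of 2 it would not have passed in either channel. The dimmer probe was thus near the limit of detection. This probe gave a log2 ratio of 0.42 after normalisation, 1.34-fold higher in Wip1 KO, although its raw brightness was a little lower there. The median gene probe had a foreground of 13 units in the Wip1 KO channel and 73 in the WT channel at 36 h, so raw brightness is not comparable between channels before normalisation.

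The brighter Ppm1k probe read 459.0 units in Wip1 KO and 195.5 in WT at 36 h, a log2 ratio of 1.43 or 2.69-fold. Its background SDs were 796.4 and 512.4 units, which 0.219% and 0.495% of gene spots reached or passed, so that 1595.8 and 1060.3 units were needed. With the median background SD of the array, an alternative chosen after the data were seen, 114.2 and 129.1 units were needed, the spot passed in both channels and Ppm1k was the only member at least 2-fold apart. The authors' deposited table gives ratios of 3.57 for the brighter and 1.65 for the dimmer probe. The probes differed by 1.00 log2 units. The SD of 0.26 is that of single probes around the mean of their gene, all above background. It is therefore not a direct measure for a difference between 2 probes, 1 of them below background. The part of the uneven background in this difference was not tested.

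Genes of the complex that Ppm1k activates were listed together with its kinase Bckdk and with Bcat2, which is not a subunit of it. Of these 6 genes 5 were above background at 24 h and 4 at 36 h, with median log2 ratios of 0.23 and 0.08 and none 2-fold apart. Over all measured genes 2.29% and 4.72% were 2-fold apart, so the absence of a call here is near the background. The medians include Bckdk and are not those of the complex alone. Dbt, which encodes the core subunit of the complex, was 1.57-fold higher in Wip1 KO at 24 h and 1.58-fold at 36 h. Bckdhb, the beta subunit of its first enzyme, was 1.38-fold higher at 24 h and 1.25-fold lower at 36 h. Bckdk, the kinase that opposes Ppm1k, had log2 ratios of 0.21 and -0.07.

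The comparison of 36 h with 24 h within each genotype used different arrays, so array and time cannot be told apart. In WT none of the 4 measured members was 2-fold apart, against 2.92% of 8587 genes, and in Wip1 KO none of 4, against 6.17% of 7113 genes. For this comparison the pooled SD between probes of one gene was 0.33 log2 units in WT and 0.38 in Wip1 KO. Ppm1b was higher at 36 h in both genotypes, with a log2 difference of 0.29 in WT, below that SD, and 0.76, or 1.70-fold, in Wip1 KO. In Wip1 KO 12.1% of all measured genes had a larger absolute difference than Ppm1b.

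Ppm1g was lower at 36 h in both genotypes, with log2 differences of -0.43 in WT and -0.28 in Wip1 KO. The Wip1 KO value was smaller than the SD of 0.38 between probes of one gene, and 51.6% of all measured genes had a larger absolute difference. Ppm1m differed by 0.02 in WT and by 0.26 in Wip1 KO, the WT value turning to -0.08 under median centring. Ppm1a differed by 0.07 in WT, or -0.03 under median centring, and by -0.11 in Wip1 KO. The dimmer Ppm1k probe, measured in WT at both times, differed by 0.19 there.

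**Figure D3:**
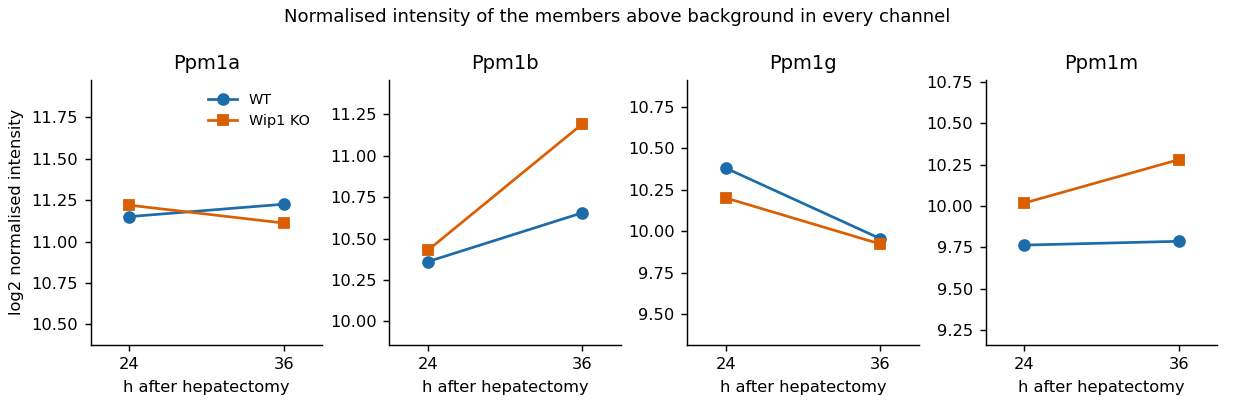
Normalised log2 intensity of the 4 members above background in every channel, in WT (circles) and Wip1 KO (squares) at 24 h and 36 h after hepatectomy, 1 array per time, each panel spanning the same range of 1.6 log2 units. Ppm1b separates the genotypes at 36 h (11.19 against 10.66). Ppm1g is lower at 36 h in both, in Wip1 KO by less than the SD between probes of one gene. Levels of different panels come from different probes and are not comparable.

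Set in order, Ppm1b was brightest in Wip1 KO at 36 h (11.19), then in WT at 36 h (10.66), Wip1 KO at 24 h (10.43) and WT at 24 h (10.36). The last 2 of these differed by less than the SD between probes of one gene. For Ppm1m, Wip1 KO at 36 h (10.28) was followed by Wip1 KO at 24 h (10.02), WT at 36 h (9.79) and WT at 24 h (9.76). For Ppm1g the order was WT at 24 h (10.38), Wip1 KO at 24 h (10.20), WT at 36 h (9.95) and Wip1 KO at 36 h (9.92). For both Ppm1m and Ppm1g the last 2 differed by less than the SD between probes of one gene and changed order under median centring. The 4 intensities of Ppm1a spanned only 11.11 to 11.23.

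The genotype ratio at 36 h minus that at 24 h was 0.47 log2 units for Ppm1b, 0.24 for Ppm1m, 0.15 for Ppm1g and -0.18 for Ppm1a. None reached 2-fold, against 8.27% of 7025 genes measured in all 4 channels, and 31.7% of those genes had a larger absolute difference than Ppm1b.

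Of a further 10 PP2C-type genes, listed as relatives outside the 9, 3 could be measured at 24 h and 2 could at 36 h, none 2-fold apart. Most genes of the array were likewise not measured, with 8018 of all 19439 measured at 24 h and 7460 at 36 h. Among all those measured, 2.29% and 4.72% were 2-fold apart, so the absence of a call in so few relatives is near the background. Ilkap, a phosphatase that binds integrin-linked kinase, had log2 ratios of -0.05 at 24 h and 0.05 at 36 h. Pptc7, a mitochondrial phosphatase, had -0.01 at 24 h and 0.55 at 36 h, 1.46-fold higher in Wip1 KO. Phlpp1, which acts on Akt, was measured at 24 h only, at 0.06, and the probes for Ppm1e, Ppm1j, Ppm1n, Tab1 and Phlpp2 were below background in every channel.

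The catalytic subunits of the PPP phosphatases, a separate family, were measured for 10 of 13 genes at each time. Their median log2 ratios were -0.10 at 24 h and -0.11 at 36 h, with none 2-fold apart. The shares over all measured genes were 2.29% and 4.72%, so this absence is near the background. Ppp5c, the catalytic protein phosphatase PP5, was 1.56-fold lower in Wip1 KO at 24 h and 1.30-fold lower at 36 h. Ppp4c was 1.35-fold lower at 24 h, and Ppp2ca, the PP2A catalytic subunit, was 1.17-fold lower at 24 h and 1.34-fold higher at 36 h.

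Genes for proteins that Wip1 acts on, and for their regulators, numbered 17. Of these, 13 were measured at 24 h with a median log2 ratio of 0.03. At 36 h 11 were measured, with a median of 0.05. None was 2-fold apart at either time, which is near the background of 2.29% and 4.72% of all measured genes. Mtor, the growth kinase, was 1.59-fold higher in Wip1 KO at 24 h and 1.74-fold lower at 36 h. Trp53, which encodes p53, was 1.22-fold lower at 24 h and 1.66-fold lower at 36 h, and Ung, a uracil-DNA glycosylase, 1.17-fold and 1.61-fold lower. Mapk14, the p38 kinase that Wip1 inactivates, was 1.30-fold lower and then 1.57-fold higher. Xpc, which recognises damaged DNA, was 1.24-fold and 1.73-fold higher, and Atm, the kinase that starts the response to DNA breaks, was 1.09-fold lower and then 1.65-fold higher.

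Of 18 genes that p53 is known to induce 13 were measured at 24 h, 10 of them above 0 and 2 at least 2-fold higher, with a median of 0.21. Over all 8018 genes measured at 24 h, 51.8% were above 0 and 2.29% at least 2-fold apart in either direction. Of those 8018 genes, 122 were at least 2-fold higher. Gadd45a was 2.23-fold and Phlda3 2.02-fold higher in Wip1 KO at 24 h. The other way, 3 of the 13 were below 0, the lowest being Fas at a log2 ratio of -0.68. Gadd45a had a log2 ratio of 0.02 at 36 h, and Phlda3 was not measured then. Of the 18 genes 12 were measured at 36 h, 6 above 0 against 54.0% of all genes, with a median of -0.01. None was 2-fold apart at 36 h, near the 4.72% of all measured genes. Ppm1d is itself such a gene but gave no ratio, and these medians stand beside those of all genes, 0.01 and 0.03.

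Genes for proteins that Ppm1a, Ppm1b and Ppm1l act on, such as Smads and stress kinases, had medians of 0.04 at 24 h and 0.18 at 36 h. These cover 12 of 17 genes at each time, with none 2-fold apart. With 2.29% and 4.72% of all measured genes 2-fold apart, that absence is near the background. At 36 h Tab2, an adaptor of the kinase TAK1, was 1.94-fold and Map2k4, a kinase of the JNK pathway, 1.63-fold higher in Wip1 KO. Of 12 genes for kinases and partners of Ppm1f, 3 were measured at each time, with medians of 0.17 and 0.18. Of all 19439 genes, 8018 were measured at 24 h and 7460 at 36 h. Camk1 was 1.32-fold higher at 24 h and 1.21-fold lower at 36 h, and Pak2, a p21-activated kinase, had log2 ratios of -0.02 and 0.40.

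Other gene groups differed between the channels of the same arrays. Hepatocyte markers were above 0 for 7 of 7 genes at both times, with medians of 0.44 and 0.85. Markers of Kupffer cells and macrophages had medians of -0.49 and 0.25, and markers of stellate cells and matrix 1.27 and -0.45. Markers of endothelium had medians of 0.08 and 0.36, and those of bile duct 0.70 over 4 genes and -0.78 over 2. Of 6 lymphocyte markers 2 were measured at 24 h, with a median of 0.11, and 1 at 36 h, at 1.31. Mitotic genes had medians of 0.91 and -2.30. In whole liver, fewer cells of a type and less RNA per cell cannot be told apart.

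At 36 h all 6 measured male-biased genes were at least 2-fold higher and all 5 measured female-biased genes at least 2-fold lower in Wip1 KO, with medians of 4.05 and -4.46. The groups were mixed at 24 h. The median was 0.36 over 3 male-biased genes, 2 above 0 and 1 below. It was -1.61 over 4 female-biased genes, 3 at least 2-fold lower and 1, Cyp2b9, 2.11-fold higher. Over all measured genes, 2.29% at 24 h and 4.72% at 36 h were at least 2-fold apart in either direction. The Y-linked genes had medians of 0.06 at 24 h, over Ddx3y and Usp9y, and 1.10 at 36 h, over Ddx3y and Kdm5d. Only Ddx3y was measured at both times, with log2 ratios of 0.09 and 1.40. The part of cell makeup, sex or growth state in the 36 h ratios of Ppm1b, Ppm1k and Ppm1m was not tested.

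**Figure D4:**
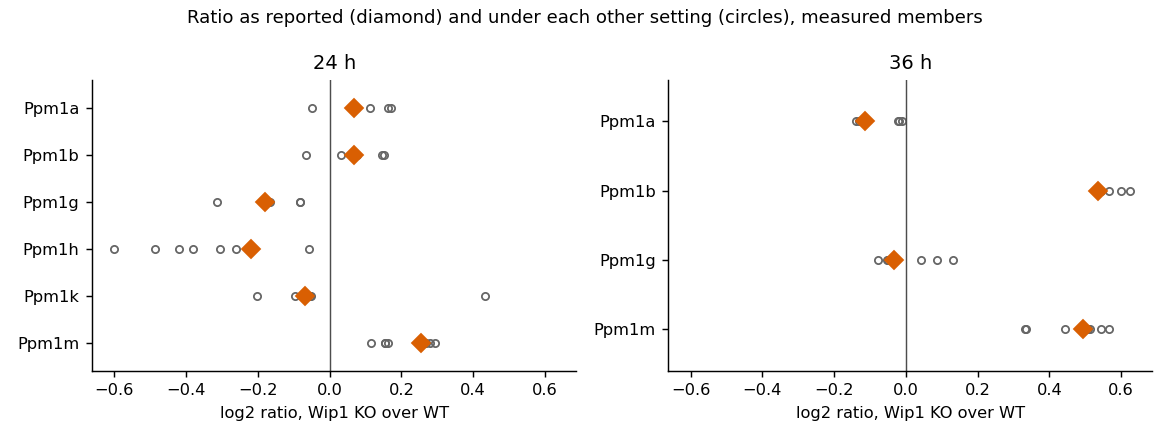
Log2 ratio of Wip1 KO over WT of each measured member at 24 h and 36 h as reported (diamonds) and under each other way of processing the arrays (circles). At 36 h Ppm1b and Ppm1m stay to the right of 0 in every setting shown. Ppm1a, Ppm1b and Ppm1k at 24 h and Ppm1g at 36 h lie on both sides of it. Settings that change only which spots are kept leave a value as it was.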

How the data were processed

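LuxScan read the spots, per the file headers, at 635 nm for Cy5 (Wip1 KO per the labels) and 532 nm for Cy3 (WT per the labels). The deposited scanner files hold raw foreground and local background intensity on a linear scale, with no normalisation by the authors. They also hold an unnormalised ratio, not used here. The authors' deposited value table holds a normalised ratio of Wip1 KO over WT, by a method not given in the sources used here, with medians of 0.999 and 1.00 and no probe names. Its rows matched the probes in descending order of identifier after 4 leading rows, with correlations to the log2 ratios of 0.974 at both times, against 0.0199 and 0.0406 when shifted by 1 row, so the match rests on the values.

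Median foreground was background-corrected by normexp (offset 50) and normalised by loess within arrays, giving no weight to the 1776 control spots (limma 3.58.1, R 4.3.3). The normalisation was run on simulated data with known changes placed in bright spots only. That run covered neither dim probes nor the background rule. Intensities for the time courses were also made comparable between arrays (Aquantile). Fold changes include the offset, which shrinks those of dim probes. Each gene was read on its brightest probe, was measured where the background rule held in both channels, and was called when 2-fold apart. No spot of the family was saturated. Names were brought to current symbols with RefSeq (of the distinct names 14166 were current symbols, 3898 were synonyms, 62 fitted more than 1 gene and 1372 had no match). 7528 unnamed probes and 23 with names turned into dates were left out of gene counts.

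No test was possible with 1 array per time. The members and gene lists were chosen with earlier results of these data known. All members are named, and from each list some of those among its 5 widest ratios at either time. Genes similar in pattern were to be named for members measured in all 4 channels and at least 1.5-fold apart, which 0 members met. Python 3.11.15, pandas 2.3.3 and matplotlib 3.10.9 made the tables and figures.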

Additional observations from a re-analysis of the deposited data

Results flagged for a closer look

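Ppm1a was above WT at 24 h (log2 ratio 0.069) and below it at 36 h (-0.114), opposite directions at the 2 times on 1 array each. The difference was not tested, both values are smaller than the SD of 0.26 between probes of one gene, and the 24 h value was -0.049 under median centring.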

How the results depend on the processing

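Of 100 alternative values of the medians and of the counts of 2-fold members, 4 moved, all 4 at 36 h, by more than the SD between probes of one gene for a median and by more than 1.5 times for a count. Without the filter on dim spots 1 member was 2-fold apart at 36 h, and with the array-wide background SD again 1, in both cases Ppm1k on its brighter probe. The median at 36 h was 0.493 over 5 members with the array-wide SD and -0.032 over 3 members with negative flags left out, which removed Ppm1m. Medians also took the other sign, at 24 h in 7 of 12 alternatives (-0.135 to 0.071 around -0.001), at 36 h in 2 of 12 (-0.026 without the filter, -0.032 above), for WT over time in 1 of 13 (-0.057, median centring) and for Wip1 KO over time in 1 of 13 (-0.108, negative flags left out). The alternative values of single members include repeats of the main value, because settings that change only which spots are kept could not alter it. Of these 217 values 3 moved: Ppm1h at 24 h to -0.488 with plain background subtraction and -0.601 in the deposited ratios, and Ppm1k at 24 h to 0.433 with the mean foreground. The causes were not tested. The array-wide SD and the flags were chosen after seeing the data. Median centring moved the median of all genes at 24 h from 0.014 to -0.11, and the split of 2-fold genes from 122 higher and 62 lower to 84 and 92. The share of 2-fold genes that were higher in Wip1 KO ran from 47.7% (median centring) to 77.0% (quantile) around 66.3% at 24 h, and from 56.3% to 70.2% (quantile) at 36 h. For 36 h over 24 h it was 47.0% in WT and 41.7% in Wip1 KO, 35.9% and 55.8% under median centring, and 37.1% and 33.3% without normalisation between arrays. No replicate could be left out. No paired analysis was possible because each time had 1 array. Dim signal limits what can be said of Ppm1d, Ppm1f, Ppm1h and Ppm1l, and of the dimmer Ppm1k probe.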
